A study of Homo sapiens with 4 samples.

Results

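The miRNAs described here come from the miR-192, miR-194, miR-215 and miR-605 loci and were measured in U2OS, a human osteosarcoma cell line. They are hsa-miR-192, hsa-miR-192*, hsa-miR-194, hsa-miR-194*, hsa-miR-215 and hsa-miR-605, written below without the species prefix. They were chosen by name, as the 6 of 737 different miRNA assays on the panels that stand for miR-192, miR-194, miR-215 or miR-605. The rule used no measured value, though earlier results of these data were known when the assays were chosen. An asterisk marks the arm of the hairpin that usually accumulates less than the other, the guide. Mature miRNA was measured by quantitative PCR with SYBR Green on a pair of multi-well panels, once per sample. The 4 samples form 2 comparisons: cells carrying a lentiviral short hairpin RNA against DDX1 (shDDX1) against cells carrying a control hairpin (shNS), both selected with puromycin at 2 µg/ml, and cells given neocarzinostatin (NCS) at 500 ng/ml for 6 h against untreated cells. DDX1 is a DEAD-box RNA helicase, and the series asked which primary miRNAs depend on it for processing. NCS is an enediyne that breaks both DNA strands.

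Repression of MDM2, a ubiquitin ligase, has been reported for miR-192, miR-194, miR-215 and miR-605. In normal tissue miR-192, miR-194 and miR-215 are known as miRNAs of liver, kidney and gut epithelium. A miRNA is cut from its primary transcript as a hairpin, the hairpin is cut again, and 1 of its arms is kept preferentially in the silencing complex.

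The mature sequences are shown because they set which assays can be told apart and which miRNAs share targets. They are RefSeq's for GRCh38.p14, written 5′ to 3′ and matched to the assays by name, and all 6 assays matched. Capitals mark the seed, bases 2 to 8.
miR-192: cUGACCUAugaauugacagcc
miR-215: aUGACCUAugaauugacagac
miR-194: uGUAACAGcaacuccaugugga
miR-192*: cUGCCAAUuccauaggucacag
miR-194*: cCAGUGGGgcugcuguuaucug
miR-605: uAAAUCCCauggugccuucuccu
miR-192 and miR-215 have the seed UGACCUA in common, and no other of the 2370 human mature miRNA names in the table carries it. Over 21 bases they differ at 2, C1A and C20A, counted from the 5′ end with the base of miR-192 first, so 90.5% of their bases are identical. How far each assay also reads the other miRNA was not analysed here. The seeds of miR-194, miR-192*, miR-194* and miR-605 were each found in 1 mature name only.

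The assays come from 3 loci. The hairpins are shown with the annotated mature arms in capitals, because the arms report on different precursors.
MIR192: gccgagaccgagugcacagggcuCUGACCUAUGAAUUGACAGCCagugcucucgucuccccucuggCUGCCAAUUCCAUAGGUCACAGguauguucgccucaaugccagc
MIR194-2: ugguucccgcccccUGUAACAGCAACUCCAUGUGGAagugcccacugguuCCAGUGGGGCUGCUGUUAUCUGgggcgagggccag
MIR215: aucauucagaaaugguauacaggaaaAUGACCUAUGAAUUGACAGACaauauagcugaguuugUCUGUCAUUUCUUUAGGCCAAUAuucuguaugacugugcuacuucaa
MIR194-1: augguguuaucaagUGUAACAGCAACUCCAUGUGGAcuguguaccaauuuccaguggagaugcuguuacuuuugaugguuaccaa
MIR605: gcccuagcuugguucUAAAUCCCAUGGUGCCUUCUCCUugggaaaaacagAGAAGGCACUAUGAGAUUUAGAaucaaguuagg
MIR192 (chr11:64891137-64891246) and MIR194-2 (chr11:64891355-64891439) lie 108 bases apart on the minus strand, within the span of the long non-coding RNA gene MIR194-2HG. MIR215 (chr1:220117853-220117962) and MIR194-1 (chr1:220118157-220118241) lie 194 bases apart on the minus strand, within the span of LOC124904515, a long non-coding RNA gene, and of IARS2, which encodes a mitochondrial isoleucyl-tRNA synthetase. MIR605 (chr10:51299573-51299655) lies on the plus strand within the span of PRKG1, a cGMP-dependent protein kinase gene. Whether these positions are exonic or intronic was not analysed here. The miR-194 guide is the same sequence from both MIR194-1 and MIR194-2, so its assay adds both loci. miR-194* is annotated on MIR194-2 alone, so of the 2 miR-194 assays only this arm belongs to a single locus, the one it has in common with miR-192 and miR-192*.

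With a single sample in every group, replicate error could not be estimated, and no test was run. A Ct is the cycle at which a well crosses the detection threshold; 1 cycle later was taken as 2-fold less RNA. Of 740 miRNA wells, 723 read under Ct 35 in shDDX1 cells, 732 in shNS cells, 591 in NCS-treated cells and 521 in untreated cells. The mean Ct over the 499 wells under 35 in all 4 samples was 26.1, 25.8, 29.4 and 30.1 in the same order, so ratios were taken within a pair only. The 11 mesenchymal marker miRNAs, such as miR-21 and miR-221, were under Ct 35 in all 4 samples, and at least 9 of them lay in the earliest 25% of wells in each. The liver marker miR-122 read Ct 30.1 in shDDX1, 28.6 in shNS, 33.4 in NCS-treated and 32.8 in untreated cells, and was not in the earliest 25% in any of them. Of 7 epithelial markers, 0 in shDDX1 and in shNS cells and 1 in NCS-treated and in untreated cells lay in the earliest 25%, and of 3 neuron markers 2 did in each sample. The blood, muscle and pluripotent cell markers had none there, except miR-142-3p, a blood miRNA, in NCS-treated cells.

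All 6 assays were read under Ct 35, the limit used here, in all 4 samples. In shDDX1 and shNS cells water wells also read under that limit, as given below, so it does not by itself show detection there. miR-192 read Ct 24.4 in shDDX1 and 23.9 in shNS cells, and 26.6 in NCS-treated and 28.4 in untreated cells. miR-215 read 25.3 in shDDX1 and 24.6 in shNS cells, and 27.7 in NCS-treated and 28.6 in untreated cells. miR-194 read 25.7 in shDDX1 and 25.2 in shNS cells, and 28.6 in NCS-treated and 29.5 in untreated cells. Among these 3 guides on panel I the order miR-192, miR-215, miR-194 from earliest to latest was the same in all 4 samples. Calibrator wells, 3 to a plate, varied with a pooled SD of 0.191 cycles, which puts the SD of a difference between 2 wells at 0.27. miR-192 was ahead of miR-215 by 0.87 cycles in shDDX1, 0.78 in shNS and 1.08 in NCS-treated cells, but by 0.16 in untreated cells, which is within that SD. miR-215 was ahead of miR-194 by 0.43, 0.60, 0.88 and 0.86 cycles in shDDX1, shNS, NCS-treated and untreated cells. Assays were not calibrated against one another, so these orders are of readings, not of copies per cell.

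On panel II, miR-194* read Ct 24.5 in shDDX1 and 25.4 in shNS cells, and 30.7 in NCS-treated and 30.3 in untreated cells. miR-605 read 26.7 in shDDX1 and 26.4 in shNS cells, and 30.7 in NCS-treated and 31.2 in untreated cells. miR-192* was the latest of the 6 in every sample, at 29.1 in shDDX1, 28.9 in shNS, 31.7 in NCS-treated and 31.3 in untreated cells. Water wells bear on these readings in 1 pair. The earliest water well of panel II read Ct 26.5 in shDDX1 and 26.6 in shNS cells, which is earlier than miR-192* in both and within 0.20 cycles of miR-605 in both. On panel I the earliest water well read 27.3 in shDDX1 and 27.8 in shNS cells, later than each of the 3 guides by 1.57 to 3.90 cycles. No water well gave a Ct in NCS-treated or untreated cells. On panel II, miR-194* read 1.96 cycles earlier than the earliest water well in shDDX1 and 1.24 cycles earlier in shNS cells. The part of background signal in the miR-192*, miR-605 and miR-194* readings of the shDDX1 pair was not tested.

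**Figure D1:**
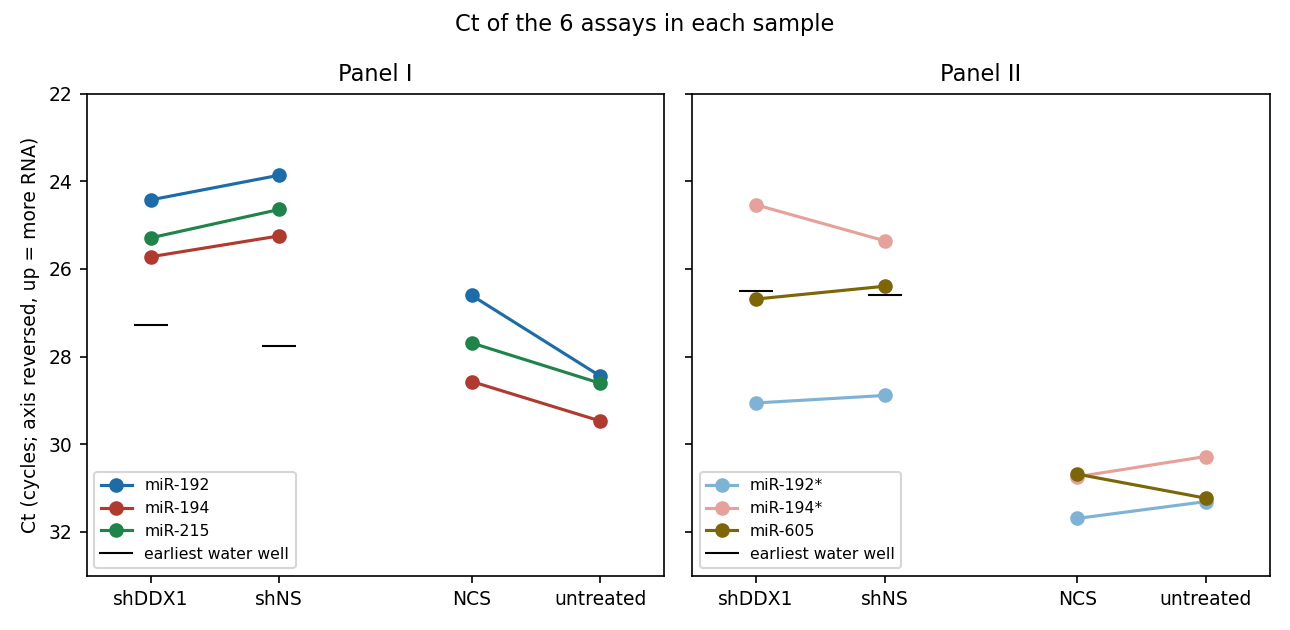
Ct (cycles, axis reversed so that more RNA is higher) of the 6 assays in shDDX1, shNS, NCS-treated and untreated cells, 1 well per point, with the panel I guides on the left and the panel II assays on the right; lines join the samples of a pair and black dashes are the earliest water well. miR-194* is the only one of the 6 that is higher in shDDX1 than in shNS cells on this uncentred scale, and miR-192* lies below the water well of its panel in both of those samples.

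The first comparison asks which of these miRNAs depend on DDX1. In shDDX1 cells the 3 guides and miR-605 stood within 1.27-fold of shNS cells, and miR-194*, the opposite arm of the MIR194-2 hairpin, was 2.18-fold higher. The log2 ratios of shDDX1 over shNS, after each sample was centred on the mean of the 499 common wells, were -0.26 for miR-192, -0.17 for miR-194, -0.34 for miR-215, 0.01 for miR-605, 0.13 for miR-192* and 1.12 for miR-194*. The 7 assays spotted on each panel gave an SD of 0.38 for such a ratio, from their differences between panels. They are miR-103, miR-191, miR-423-5p, U6, SNORD38B, SNORD49A and UniSp6 CP, and the miRNAs among them lie in the outer columns. Panel I ratios had quartiles of -1.67 and -0.14 in the middle columns (7 to 18) and -0.66 and 0.24 in the outer columns. That split was drawn after the data were seen. Whether the SD holds for middle wells, such as that of miR-194*, was not tested. All but miR-194* lay within 0.38. Without miR-423-5p the SD was 0.32, and miR-215 lay just outside that. At a threshold of 2-fold, 0 of the 6 were lower, where 17.3% of all 716 quantified miRNAs were, and 1 was higher, where 11.0% were. In shDDX1 cells miR-605 read later than the earliest water well of panel II. There 73.7% of the miRNA wells of that panel read later than miR-605 or gave no Ct. Shares and medians over all miRNAs in this pair thus include many readings later than water. The median of the 6 was -0.08, beside 0.04 for all. In the authors' deposited fold values, shDDX1 over shNS cells, miR-192 stood at 0.677, miR-194 at 0.719 and miR-215 at 0.639. There miR-605 was at 0.817, miR-192* at 0.888 and miR-194* at 1.76. With each panel centred on its own wells, the log2 ratios were 0.16 for miR-192, 0.25 for miR-194 and 0.08 for miR-215. They were -0.42 for miR-605, -0.30 for miR-192* and 0.69 for miR-194*.

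The sign in shDDX1 depended on the centring for 5 of the 6. Across 9 scalings, which use the same wells by mean or median, small RNAs, 3 reference miRNAs, no centring, each panel alone, plate calibrators, neighbouring wells or the authors' shifted values, the ratio was above 0 in 3 for miR-192 and miR-194, in 2 for miR-215 and miR-192*, and in 1 for miR-605. It was above 0 in all 9 for miR-194*, between 0.46 and 1.12, and reached 2-fold in 2 of them. The 9 are not independent: in this pair the authors' shifted values gave the same ratios as no centring. The others, except neighbouring wells, shift all wells of a sample or panel alike. The plates stood apart in the shDDX1 pair: the median ratio was -0.42 for panel I wells and 0.46 for panel II wells. Within panel II, 85.3% of 353 wells had a lower ratio than miR-194*, and 19.8% of them were at least 2-fold higher. Of its 23 quantified neighbours within 2 rows and 2 columns, 20 had a lower ratio, and their median was 0.21.

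Comparing assays on the same panel removes any choice of centring. miR-194* and miR-192*, which come from hairpins 108 bases apart in 1 host gene, lie in the same row of panel II. miR-194* was ahead of miR-192* by 4.52 cycles in shDDX1 and by 3.53 in shNS cells, a change of 0.99 on the log2 scale. Against miR-605, in the outer columns of the panel, miR-194* was ahead by 2.15 cycles in shDDX1 and 1.04 in shNS cells, a change of 1.11. The SD of a difference between the ratios of 2 assays, from the repeated wells, was 0.54. Both changes were larger than that SD, but less than 2.1 SD in size. After subtraction of neighbouring wells they were 1.30 and 1.14. Both comparisons rest on assays that read near or later than the earliest water well. Among the guides, miR-192 against miR-215 changed by 0.08, miR-192 against miR-194 by -0.09 and miR-215 against miR-194 by -0.17, all within that SD. With neighbouring wells subtracted these were 0.57, 0.13 and -0.44, the first just past it.

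**Figure D2:**
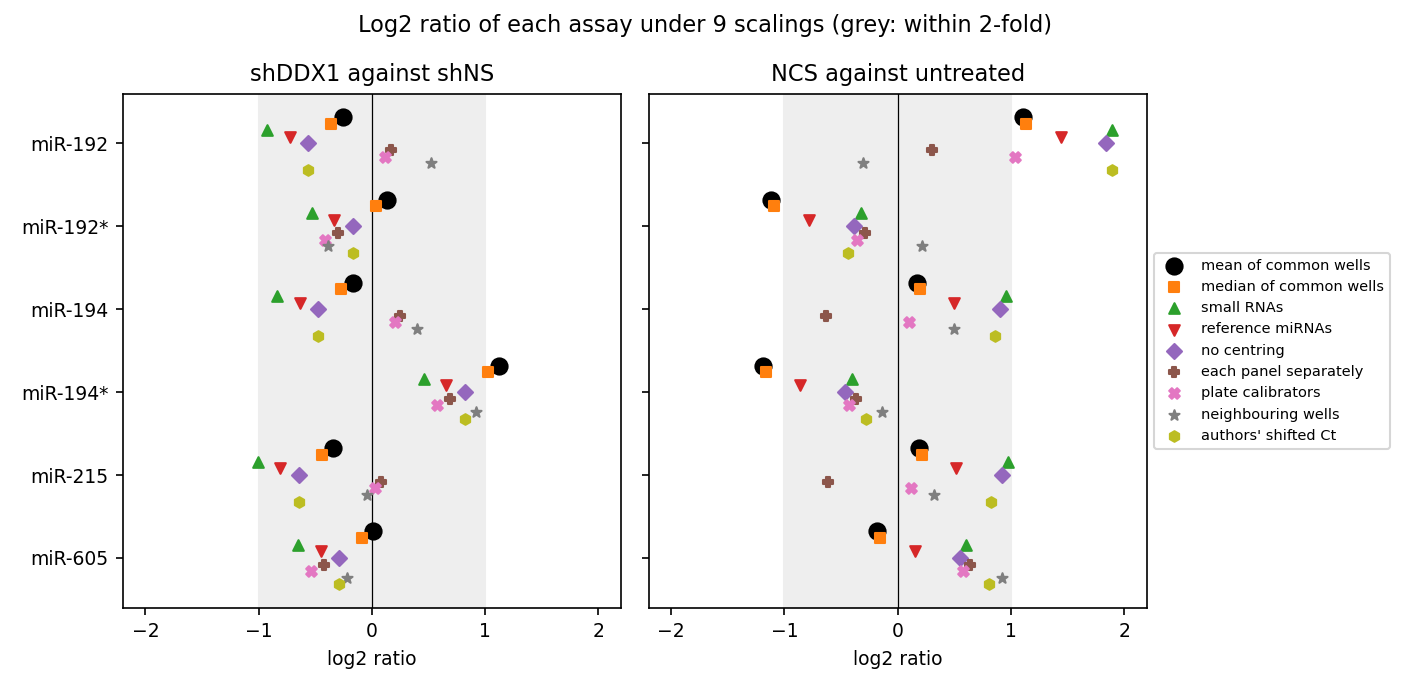
Log2 ratio of each of the 6 assays, shDDX1 over shNS on the left and NCS-treated over untreated on the right, under 9 scalings; 1 symbol per scaling, large black circles for the mean of the common wells, grey for changes within 2-fold. miR-194* is above 0 throughout in shDDX1 and below 0 throughout after NCS, while every other assay has symbols on both sides of 0 in both comparisons.

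The second comparison asks how miRNA levels stand once DNA has been broken. After NCS, miR-192 was 2.15-fold higher than in untreated cells, miR-192* 2.17-fold lower and miR-194* 2.29-fold lower. miR-194, miR-215 and miR-605 had log2 ratios of 0.17, 0.19 and -0.18. The SD of a ratio from the 7 repeated assays was 0.79 here, or 0.35 without miR-423-5p, whose panels disagreed. Of the 6 assays, 1 was at least 2-fold higher, where 16.9% of all 498 quantified miRNAs were, and 2 were at least 2-fold lower, where 22.3% were. The median of the 6 was -0.01, beside -0.38 for all. In the authors' deposited fold table, NCS-treated over untreated cells, miR-192 stood at 3.73, miR-194 at 1.81, miR-215 at 1.77, miR-605 at 1.75, miR-194* at 0.826 and miR-192* at 0.739.

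The 3 calls after NCS lay on the side of their panel's median. All 3 guides lie on panel I, where the median log2 ratio of 253 wells was 0.30, and the other 3 on panel II, where that of 248 wells was -0.84. With each panel centred on its own wells, miR-192 was at 0.30, miR-194 at -0.64, miR-215 at -0.62, miR-192* at -0.29, miR-194* at -0.37 and miR-605 at 0.64, so 0 of 6 were past 2-fold, where 13.7% of all miRNAs were higher and 20.5% lower under that centring. Within panel II, 39.9% of wells were at least 2-fold lower under the common centring, and 31.9% and 27.8% had lower ratios than miR-192* and miR-194*. miR-605 stood farthest from its panel, with 81.9% of panel II wells below it. Within panel I, 71.9% of wells had a lower ratio than miR-192, 45.5% than miR-215 and 44.7% than miR-194. The ratio of miR-192 was above 0 in 8 of 9 scalings and at least 2-fold in 7, and was -0.31 after subtraction of neighbouring wells. That of miR-605 was above 0 in 7 of 9, reaching 0.92 with neighbouring wells subtracted, and below 0 only under the mean and median of the common wells. miR-194 and miR-215 were above 0 in 8 of 9, all but the centring per panel, and miR-192* below 0 in 8 of 9, all but the subtraction of neighbouring wells.

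**Figure D3:**
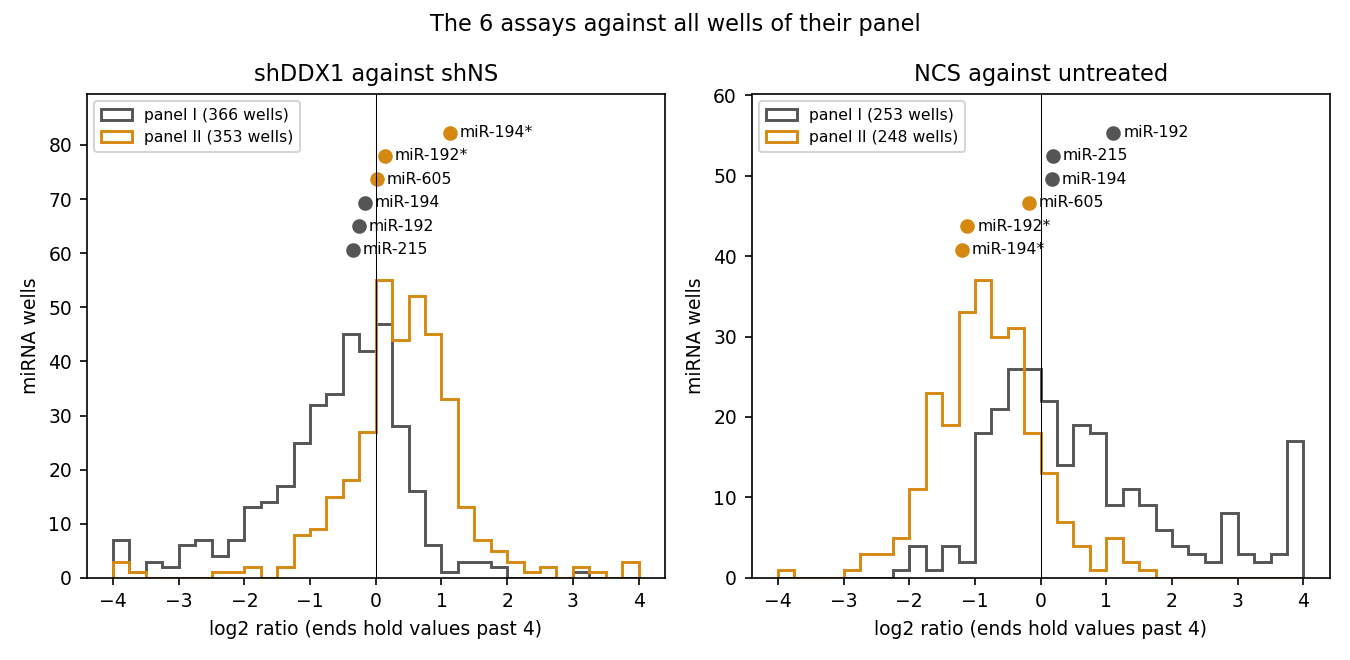
Number of miRNA wells by log2 ratio on panel I (grey) and panel II (orange), shDDX1 over shNS on the left and NCS-treated over untreated on the right, with the 6 assays as dots coloured by panel and stacked only for legibility. The panel medians are -0.42 and 0.46 on the left and 0.30 and -0.84 on the right; miR-194* at 1.12 on the left and miR-605 at -0.18 on the right lie toward the upper end of panel II.

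Set against its panel mates, miR-192 changed by 0.92 relative to miR-215 and by 0.94 relative to miR-194 after NCS, whereas miR-215 and miR-194 moved together, with a change of 0.02 between them. The SD of such a difference was 1.12 from the 7 repeated assays and 0.50 without miR-423-5p, so the distance between miR-192 and miR-215, which share a seed, was within the first and outside the second. Position on the plate moved with it. The miR-192 well, L15, is in the central columns (7 to 18) of panel I, where the median log2 ratio was 1.21, and the wells of miR-194 (A20) and miR-215 (D4) lie in the outer columns, where it was -0.16. This split of the columns was drawn after the data were seen, so it is not an independent measure of plate position. Among the 113 middle wells 48.7% had a lower ratio than miR-192, and among the 140 outer wells 60% and 61.4% had a lower ratio than miR-194 and miR-215. With neighbouring wells subtracted, the differences of miR-192 from miR-215 and miR-194 were -0.63 and -0.80. The part of plate position in the ratio of miR-192 was not otherwise tested. On panel II, miR-194* changed by -1.01 and miR-192* by -0.93 relative to miR-605 after NCS, and by -0.08 between themselves. The differences from miR-605 were -1.06 and -0.71 with neighbouring wells subtracted, so they kept their sign where those of miR-192 did not. They too were within the first SD and outside the second.

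**Figure D4:**
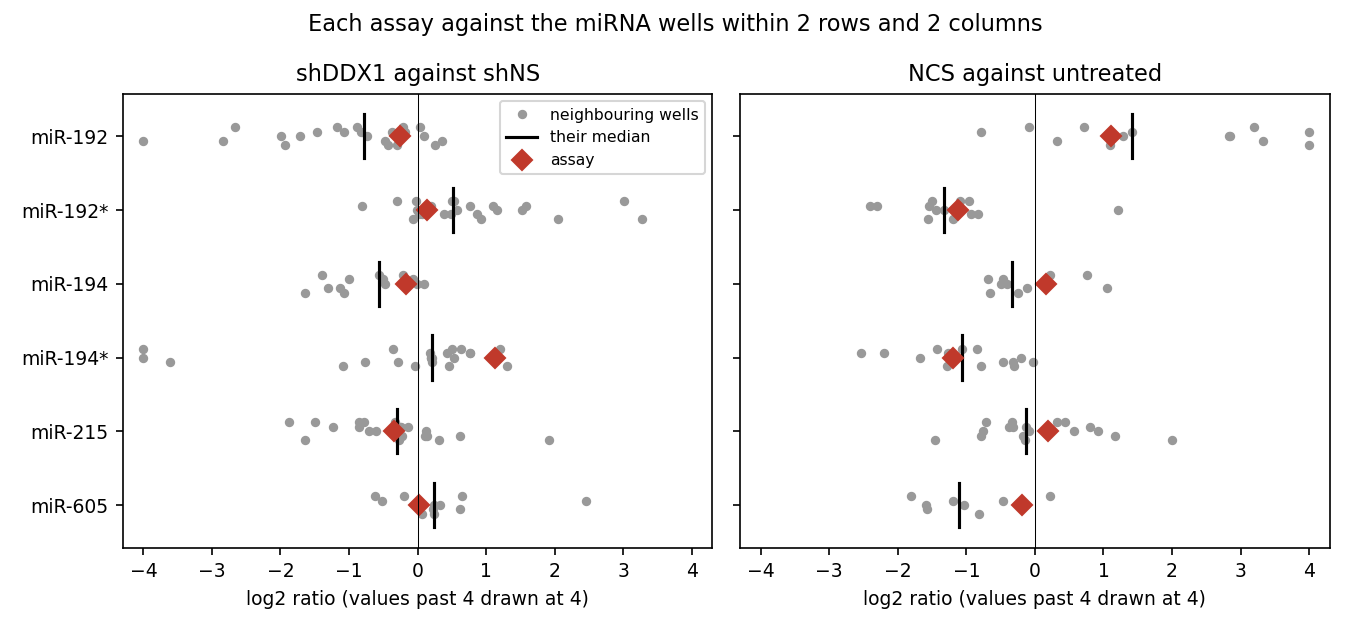
Log2 ratio of each of the 6 assays (red diamonds) and of the quantified miRNA wells within 2 rows and 2 columns of it (grey dots, with their median as a black bar), shDDX1 over shNS on the left and NCS-treated over untreated on the right. After NCS the neighbours of miR-192 have a median of 1.41, above miR-192 itself at 1.11, and in shDDX1 miR-194* at 1.12 lies above the median of its neighbours at 0.21.

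The arms of miR-192 come from 1 hairpin. For miR-194 the comparison is looser, since its guide assay adds MIR194-1 to the MIR194-2 hairpin that gives miR-194*. The opposite arm of miR-192 read later than its guide by 4.63 cycles in shDDX1, 5.03 in shNS, 5.09 in NCS-treated and 2.86 in untreated cells. For miR-194 it read 1.18 cycles earlier than the guide in shDDX1, and later by 0.11 in shNS, 2.17 in NCS-treated and 0.81 in untreated cells. miR-192* read later than the earliest water well of panel II by 2.56 cycles in shDDX1 and 2.29 in shNS cells. The part of background signal in the miR-192 arm differences of that pair was not tested. In log2 ratios, the guide minus the opposite arm was -0.39 for miR-192 and -1.29 for miR-194 in shDDX1 against shNS, and 2.22 and 1.36 after NCS. Guides lie on panel I and opposite arms on panel II, and the same difference had a median of -0.86 over all 91 hairpins so placed in the first comparison and 1.30 over 62 in the second. With each panel centred on its own wells it was 0.47 for miR-192 and -0.44 for miR-194 in shDDX1, and 0.59 and -0.27 after NCS. With neighbouring wells subtracted it was 0.91 and -0.52 in shDDX1, and -0.52 and 0.63 after NCS. Set against the common centring, the sign for miR-192 turned here in both comparisons and that for miR-194 in neither. Under centring per panel the sign turned for miR-192 in shDDX1 and for miR-194 after NCS. The values centred per panel lie between the lower and upper quartiles of hairpins under that centring, which were -0.61 and 0.63 in shDDX1 and -1.12 and 0.49 after NCS, except for miR-192 after NCS.

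Likeness to other miRNAs was measured as the root mean square distance between levels over the 4 samples, each assay centred on its own mean, among 252 other panel I assays read under Ct 35 throughout. Nearest to miR-192 were miR-106b at 0.049, miR-324-5p at 0.090 and miR-423-3p at 0.135 on the log2 scale, where the median assay was at 0.70. Nearest to miR-194 were miR-210 at 0.041, miR-23a at 0.117 and miR-374a at 0.130, and nearest to miR-215 were miR-19a at 0.039, miR-135b at 0.049 and miR-124 at 0.080. By this measure miR-215 held place 10 for miR-194 and miR-194 place 14 for miR-215, and both have wells in the outer columns. miR-192, whose well is in the middle columns, stood at place 54 for miR-194 and place 57 for miR-215, and for miR-192 they held places 37 and 36. The miR-194 assay shares a locus with each of the other guides. With 4 samples of 2 experiments this ranks profiles of 4 readings.

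Other miRNAs reported to repress MDM2 were set beside them, of which 6 of 7 lie on panel I. In shDDX1 2 of the 7 were at least 2-fold lower, where 17.3% of all miRNAs were, and 1 was higher, where 11.0% were. Their ratios ran from miR-339-5p at -1.95 to miR-661 at 1.52. The median was -0.23, and it changed sign to 0.19 with each panel centred separately. After NCS 1 was lower, where 22.3% of all were, and 2 were higher, where 16.9% were, from miR-661 at -2.31 to miR-339-5p at 6.12. Their median of 0.88 became 0.08 with each panel centred separately, when 2 were lower and 2 higher, where 20.5% and 13.7% of all were. The ratio of miR-339-5p, in the middle columns, was 3.02 after NCS and -0.15 in shDDX1 once neighbouring wells were subtracted. In shDDX1 miR-339-5p was below 0 and miR-661 above 0 in all 9 scalings, and after NCS miR-339-5p was above 0 and miR-661 below 0 in all 9.

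The 7 epithelial marker miRNAs, all on panel I, bear on the tissue in which miR-192, miR-194 and miR-215 are abundant. In shDDX1 6 of them were at least 2-fold lower, where 17.3% of all miRNAs were, and 0 higher, where 11.0% were. The median was -1.31, from miR-200b at -2.63 to miR-375 at 0.57. In shDDX1 cells all 7 read later than the earliest water well of that panel, at Ct 27.3. After NCS 6 were at least 2-fold higher, where 16.9% of all were, and 0 lower, where 22.3% were. The median was 1.58 and values ran from miR-375 at -0.70 to miR-200b at 2.49. With each panel centred separately the medians were -0.89 and 0.77. In shDDX1 3 were then at least 2-fold lower and 0 higher, where 112 and 56 of all 716 miRNAs were. After NCS 1 was then higher and 1 lower, where 13.7% and 20.5% of all were.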

How the data were processed

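The authors deposited 3 tables, and per the file headers these hold the Ct of each well, shifted Ct values, and a linear ratio (fold) of each sample over the control of its pair. Per the labels' protocols, Trizol was used for total RNA, an Exiqon kit for reverse transcription and SYBR Green for detection. The instrument and its threshold are not given in the sources used here. Here the Ct table was used, with Python 3.11.15, numpy 2.4.6 and pandas 2.3.3. Levels were minus Ct, centred on the mean of the 499 miRNA wells under Ct 35 in all 4 samples. Subtracting centred levels within a pair gave the log2 ratio. An assay was quantified where both Ct were under 35, and miRNAs on both panels were averaged. No count model and no test were used, since each group has 1 sample. The fold code was tested on simulated data with a uniform shift between samples. That simulation held no panel or plate-position effect, so it does not bear on those. With shNS and shDDX1 the authors' shift was -0.789 cycles for panel I wells and 0.789 for panel II wells, alike for the pair, so it cancels in their ratio. In the NCS pair it differed from well to well.

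The assays and the lists were chosen with earlier results of these data known. The text names all 6 assays, assays sharing a seed, the 3 assays most like each guide, the lowest and highest assay of the lists of miRNAs reported to repress MDM2 and of epithelial markers, and examples of the other cell type markers. Lists defined around 1 further item are not reported here. Alternatives were other centrings, Ct limits of 37, 32 or none, thresholds of 1.5-fold and 4-fold, and the deposited tables. The middle columns were defined after the data were seen.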

Additional observations from a re-analysis of the deposited data

Results flagged for a closer look

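Water wells, which lie outside the main measurement, gave a Ct in 7 of 9 wells in shDDX1 and 6 of 9 in shNS cells, and in 0 of 9 in NCS-treated and untreated cells. The earliest on panel I, which holds the 3 guides, read 27.3 in shDDX1 and 27.8 in shNS cells. The earliest on panel II, which holds miR-192*, miR-194* and miR-605, read 26.5 in shDDX1 and 26.6 in shNS cells. miR-192* read 2.56 cycles later than it in shDDX1 and 2.29 cycles later in shNS cells.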

How the results depend on the processing

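No paired analysis was possible because there is a single sample in every group. Ct limits of 37, 32 or none changed no ratio of the 6 assays, all under Ct 32 throughout. These limits could not do so, since the wells used for centring were kept the same. Under the 9 other scalings and tables, 30 of 54 ratios in shDDX1 and 40 of 54 after NCS moved by less than the SD of repeated wells, or 27 and 17 by the SD without miR-423-5p. These counts hold repeats, since both deposited tables gave the same ratios for the 6 assays, and in shDDX1 so did no centring. With neighbouring wells subtracted, 2 ratios that were past 2-fold changed sign after NCS, miR-192 to -0.31 and miR-192* to 0.22. In shDDX1, the count at least 2-fold higher was 0 in place of 1 with small RNAs, reference miRNAs, no centring, each panel centred alone, plate calibrators, neighbouring wells subtracted, either deposited table, and at 4-fold. The count lower was 1 in place of 0 with small RNAs, where miR-215 was at -1.01. After NCS, the count lower was 0 in place of 2 under those same 9 alternatives, and the count higher was 0 in place of 1 with each panel centred alone, with neighbouring wells subtracted and at 4-fold. The median of the 6 in shDDX1 was -0.75 with small RNAs, -0.54 with reference miRNAs, and 0.12, 0.07 and 0.18 with each panel centred alone, plate calibrators and neighbouring wells subtracted. After NCS it was 0.82 in both deposited tables, 0.78 with small RNAs, 0.72 without centring and -0.33 with each panel centred alone. Median centring and a threshold of 1.5-fold changed no count.

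The guide minus opposite arm difference was recomputed under alternatives chosen after the data were seen. In the shDDX1 pair that of miR-192 rests on miR-192* readings later than the earliest water well of panel II. For miR-192 in shDDX1 it was 0.47 with each panel centred alone, 0.53 with plate calibrators and 0.91 with neighbouring wells subtracted, and after NCS 0.59 with each panel centred alone and -0.52 with neighbouring wells subtracted. For miR-194 in shDDX1 it was -0.44, -0.37 and -0.52 under the same 3, and after NCS -0.27 with each panel centred alone. The cause was not tested; by construction, centring each plate alone removes the distance between panels. Over all miRNAs the median ratio was shifted in shDDX1 by -0.67 with small RNAs, -0.46 with reference miRNAs and -0.30 without centring, and after NCS by 0.79, 0.33 and 0.73 under the same 3, 0.43 with plate calibrators, 0.19 with each panel centred alone, 0.40 with neighbouring wells subtracted and 0.97 in the deposited normalized table. Of miRNAs past 2-fold in shDDX1, 61.1% were lower as reported, 91.5% with small RNAs, 86.8% with reference miRNAs, 80.7% without centring, 72.6% with plate calibrators and 82.2% in the deposited normalized table. After NCS 43.1% were higher as reported, and 86.3%, 61.1%, 83.2%, 70.2% and 84.9% under these 5, with 56.8% after subtraction of neighbouring wells.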
